A study of Homo sapiens with 12 samples.

Results

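Nodal signalling is the activin-type branch of the TGF-β family that keeps human pluripotent cells undifferentiated and, when strong, starts mesendoderm formation. The secreted ligand binds type I and type II activin receptors together with a coreceptor of the EGF-CFC family, the receptors phosphorylate SMAD2 and SMAD3, and these enter the nucleus with SMAD4 and act at DNA with the factor FOXH1. NODAL and both LEFTY genes are themselves known targets of the pathway, so that the ligand and its secreted antagonists are usually made by the same cells.

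The 9 genes described here were the ligands NODAL and GDF3, the secreted antagonists LEFTY1, LEFTY2 and CER1, the coreceptor TDGF1 (Cripto), the type II receptor ACVR2B, the transcription factor FOXH1 and the intracellular inhibitor SMAD7. They were taken by symbol, and all 9 stood among the 28278 genes of the count table. Of these, 8 passed the filter on low counts and CER1 did not. The libraries came from WA26, an established human embryonic stem cell (hESC) line grown in E8 medium on Matrigel, in which UBQLN1, a shuttle protein that brings ubiquitinated proteins to the proteasome, had been knocked out with CRISPR-Cas9 and clones picked. There were 4 groups of 2 libraries each: wild-type (WT) cells in ordinary culture at 20% O2, UBQLN1-/- (KO) cells in the same culture, KO cells at 5% O2, and KO cells treated with the antioxidant N-acetylcysteine (NAC). All groups shared the line and the medium, and the 3 KO groups shared the deletion. The labels do not say which clone gave which library, and nothing says that the libraries of a group came from separate cultures, so the p-values measure the spread between libraries only. The labels name no vehicle for NAC, for which the study's text gives DMSO. They also give no oxygen level for the NAC libraries and no length of culture. The study's text and its scheme give unlike lengths for the culture at 5% O2 before RNA-seq. Vehicle, passage and length of culture therefore cannot be told apart from the treatments, nor between the treated groups. WT cells at 5% O2 or with NAC were not analysed here, and every comparison of culture conditions below was therefore within KO cells.

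Depth was 31236968 to 41639350 counts a library, and replicates varied with a biological coefficient of variation of 13.7%. UBQLN1 was at 209 ± 17.3 CPM in WT against 42.9 ± 0.850 CPM in untreated KO (log2 fold change -2.29, SE 0.12, edgeR adjusted p = 2.52e-06). CPM are counts scaled to the size of the library by the TMM method, given as mean ± SD (n = 2). KO at 5% O2 was at 49.8 ± 2.98 CPM and KO with NAC at 55.9 ± 9.29 CPM. The NAC level was above that of untreated KO (0.38, edgeR adjusted p = 0.0196), at 62.4 CPM in the first library and 49.3 CPM in the second. The summed level of 12 markers of pluripotent cells was 5442 to 6860 CPM, while summed neuroectoderm markers were at 5.04 to 16.3 CPM, and trophoblast and amnion markers at 10.7 to 13.5 CPM. The 14 genes of the mesendoderm list summed to 17.8 to 19.3 CPM in WT, 20.8 and 22.2 CPM in untreated KO, 28.9 and 29.9 CPM in KO at 5% O2 and 16.7 and 17.3 CPM with NAC, and SOX17 among them had no count in any library. One library stood apart. In the first KO library with NAC, 10 mesenchymal markers summed to 994 CPM against 519 to 634 CPM in the other 7 libraries, and the collagen gene COL3A1, at 0 to 0.207 CPM elsewhere, was at 29.1 CPM. Results of the 9 genes for NAC are therefore given with and without that library, and other genes are given with it unless stated. The source of that marker signal and its part in these results were not tested.

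The LEFTY genes are close copies, which bears on how far their reads can be told apart. LEFTY1 (hg38 chr1:225886282-225889146, minus strand, 4 exons) and LEFTY2 (chr1:225936603-225941220, minus strand, 4 exons) had coding sequences of 1098 bases each that differed at 31 positions, an identity of 97.2%, with a longest identical run of 300 bases. Of all 31-base words of the transcripts, 34.7% for LEFTY1 and 28.7% for LEFTY2 occurred at a second place of the primary assembly. For TDGF1 (chr3:46577788-46582457, plus strand, 6 exons) that share was 63.4%, with 55.1% of its words found in the processed copy TDGF1P3. NODAL, GDF3, CER1 and SMAD7 had no such word, ACVR2B had 0.783% and FOXH1 9.01%. The counter left out reads with several matches by default, so the levels of LEFTY1, LEFTY2 and TDGF1 rest on the parts of their transcripts that differ from their copies and are uncertain to that extent. The counts also ignore strand, and 791 exon bases of FOXH1 overlap exons of KIFC2 and 110 of TDGF1 overlap exons of LRRC2, both on the opposite strand, so reads of these pairs cannot be told apart there.

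Upstream sequence was read from the RefSeq promoter table (GRCh38.p14), which held ACVR2B, CER1, NODAL, GDF3 and SMAD7. The 250 bases before the start are printed for both ligands, NODAL and GDF3, which rose at 5% O2, and for the first of 3 starts of SMAD7, which fell with NAC. Capitals mark the word CAGAC, which SMAD proteins can bind, on either strand.
NODAL, chr10:70441682-70441931, minus strand: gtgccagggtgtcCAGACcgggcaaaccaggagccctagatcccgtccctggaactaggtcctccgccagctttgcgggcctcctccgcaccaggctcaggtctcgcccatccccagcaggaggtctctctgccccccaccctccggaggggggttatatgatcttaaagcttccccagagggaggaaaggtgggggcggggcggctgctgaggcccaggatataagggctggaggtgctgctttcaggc
GDF3, chr12:7695776-7696025, minus strand: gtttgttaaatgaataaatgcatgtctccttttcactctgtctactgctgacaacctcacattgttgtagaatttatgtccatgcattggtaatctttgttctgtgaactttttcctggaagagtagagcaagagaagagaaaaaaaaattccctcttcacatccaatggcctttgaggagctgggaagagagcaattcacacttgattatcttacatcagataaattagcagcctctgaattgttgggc
SMAD7, chr18:48950966-48951215, minus strand: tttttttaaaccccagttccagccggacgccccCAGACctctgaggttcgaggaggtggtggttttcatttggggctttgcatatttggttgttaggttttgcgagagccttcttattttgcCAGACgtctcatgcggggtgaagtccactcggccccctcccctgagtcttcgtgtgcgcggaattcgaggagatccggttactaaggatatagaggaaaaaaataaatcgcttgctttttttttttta
The word lay 237 bases before the start of NODAL, and 217 and 128 bases before that of SMAD7. It was in 4 of the 7 windows of these genes and in 38.0% of 35116 promoter windows of that length, so it is a common word. The FOXH1 words AATCCACA and AATACACA, in 0.709% and 0.666% of all windows, were found once, as AATACACA 154 bases before the start of CER1. GTCTAGAC (0.182% of windows) and ACGTG (18.5%), a form of the hypoxia word, were in none of the 7. The other form, GCGTG, was not searched for, so a lack of hypoxia words cannot be read from this. These are matches of letters on both strands and not measured sites.

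The order of the levels was much the same in each group. Per kilobase of the longest transcript in GENCODE v44, TDGF1 was far above the rest at 308 CPM per kilobase in WT, 274 in untreated KO, 323 in KO at 5% O2 and 328 in KO with NAC. FOXH1 and GDF3 followed, at 44.7 and 42.3 CPM per kilobase in WT, and with NAC they stood at 32.4 and 32.3, with the libraries of GDF3 on either side of those of FOXH1. SMAD7 and ACVR2B came next, at 14.5 and 12.0 CPM per kilobase in untreated KO, and changed places between groups. NODAL was at 5.78 and LEFTY1 at 2.45 CPM per kilobase in WT, while LEFTY2 was lower still at 0.256. Only at 5% O2 did NODAL, at 12.0 CPM per kilobase, stand above ACVR2B at 11.7, a gap within the spread of the NODAL libraries. With the shortest annotated transcript in place of the longest, SMAD7 and ACVR2B stood above GDF3 in WT (83.5 and 82.7 against 42.3 CPM per kilobase), so the middle of the order depended on which transcript the cells used.

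**Figure D1:**
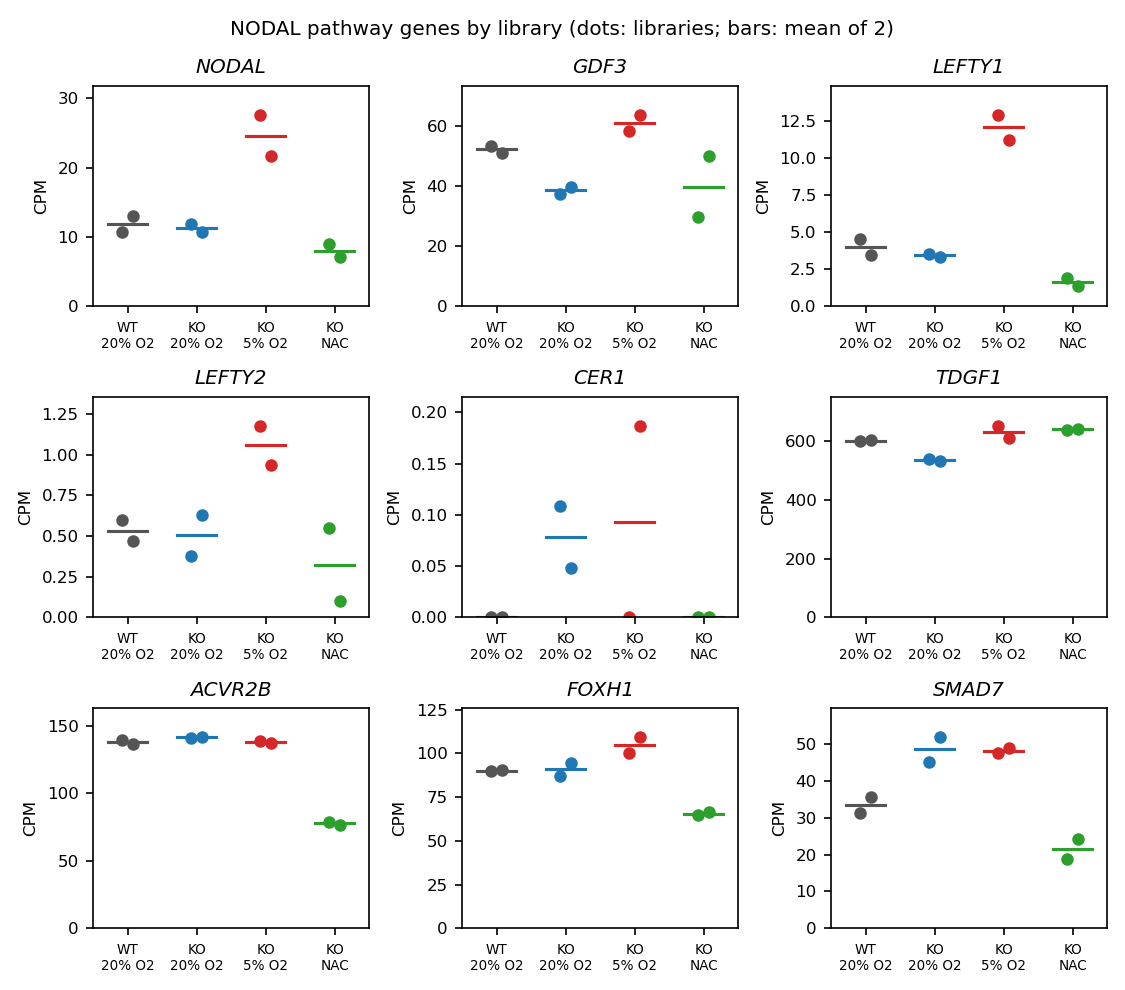
Level of each of the 9 genes in CPM (y axis, from 0, its own scale for each gene) in the 4 groups (x axis), with a dot for each of the 8 libraries and a bar at the mean of 2. NODAL and LEFTY1 were highest in both KO libraries at 5% O2 and lowest in both with NAC, while ACVR2B stood at 136 to 142 CPM in the 6 libraries without NAC and at 76.8 and 78.9 CPM with it.

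Loss of UBQLN1 at 20% O2 came first. The differences were small, the largest being in SMAD7, at a ratio of 1.45 to WT, and GDF3, at a ratio of 0.739. With edgeR (quasi-likelihood test, p adjusted over 15916 genes by Benjamini-Hochberg), 0 of the 8 genes tested passed an adjusted p of 0.05, where 1.96% of all genes did, 1.34% as higher and 0.622% as lower. At an unadjusted p under 0.05, 1 was higher (SMAD7; 9.50% of all genes) and 2 were lower (GDF3 and TDGF1; 8.12%), and DESeq2 called SMAD7 alone. By the study's cutoffs, an unadjusted p under 0.05 and a fold over 2, 0 were called, beside 1.11% of all genes as higher and 1.46% as lower. The p-values here were those of edgeR, where the study used DESeq2. The median log2 fold change of the 8 was -0.07, beside -0.00 over all genes. These edgeR tests took their spread from all 4 groups. In an edgeR fit of the WT and untreated KO libraries alone, SMAD7 (adjusted p = 0.0208) and GDF3 (adjusted p = 0.0247) passed. That fit called 4.76% of all genes as higher and 2.49% as lower.

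SMAD7 (chr18:48919853-48950965, minus strand, 4 exons) encodes the inhibitory SMAD that blocks activated type I receptors and is a feedback target of TGF-β family signals. It was at 31.3 and 35.6 CPM in WT and at 45.2 and 52.0 CPM in KO. The groups did not overlap, but with 2 libraries each this held for ACVR2B too, at a log2 fold change of 0.04. Such a gap carries no test. The log2 fold change was 0.54 (SE 0.13, 95% interval 0.25 to 0.83, adjusted p = 0.0632), and with DESeq2 the adjusted p was 0.00649. Over 18 other settings the value ran from 0.43 to 0.64 and passed in 7 of them.

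GDF3 (chr12:7689784-7695775, minus strand, 2 exons), a TGF-β family ligand that pluripotent cells make, was at 53.6 and 51.0 CPM in WT and 37.3 and 39.9 CPM in KO. Both KO libraries were below both WT libraries, a gap that carries no test either. The log2 fold change was -0.44 (SE 0.18, 95% interval -0.84 to -0.04, adjusted p = 0.242), and it passed in 4 of 18 other settings. TDGF1, the coreceptor through which NODAL and GDF3 reach the activin receptors, was at 602 and 602 CPM in WT and at 539 and 533 CPM in KO. That difference of -0.17 (SE 0.07, adjusted p = 0.267) was larger than the spread within each group but did not pass.

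For the other genes the intervals limit how large a difference could have been. NODAL (chr10:70431936-70441681, minus strand, 3 exons) was at 10.7 and 13.1 CPM in WT and at 11.8 and 10.7 CPM in KO, with overlapping groups and a log2 fold change of -0.08 (95% interval -0.47 to 0.31, adjusted p = 0.850). ACVR2B (chr3:38453890-38493142, plus strand, 11 exons), which binds the ligand and activates the type I receptor, differed by 0.04 (95% interval -0.14 to 0.21), and FOXH1, the DNA-binding partner of SMAD2 on chromosome 8, by 0.01 (95% interval -0.19 to 0.21). LEFTY1 was at -0.21 (95% interval -0.72 to 0.29). LEFTY2, with 14 to 26 counts in each of these 4 libraries, was at -0.07 with an interval from -1.54 to 1.40. A fold of 2 in either direction lay inside that interval.

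Next, KO cells at 5% and 20% O2 were compared. NODAL and its antagonist LEFTY1 rose at 5% O2, NODAL to 2.19 times its mean at 20% O2 and LEFTY1 from 3.44 ± 0.157 to 12.0 ± 1.21 CPM (SD, n = 2), and GDF3 rose to 1.58 times. By edgeR's adjusted p, 3 of the 8 genes were higher and 0 were lower, against 3.68% and 4.13% of all genes (7.81% in either direction). With a fold over 2 and an unadjusted p under 0.05, NODAL and LEFTY1 were higher (0.811% of all genes) and 0 were lower (1.21%). For the receptor ACVR2B and the inhibitor SMAD7 the 95% intervals lay between -0.30 and 0.27 on the log2 scale. The median log2 fold change of the 8 was 0.45, beside -0.00 over all genes.

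NODAL was at 11.8 and 10.7 CPM in KO at 20% O2 and at 27.6 and 21.6 CPM at 5% O2, or 436, 440, 1127 and 694 counts. The low-oxygen libraries were above every other library of the table. The log2 fold change was 1.13 (SE 0.18, adjusted p = 0.00702). LEFTY1 stood at 3.55 and 3.33 CPM at 20% O2 and at 12.9 and 11.2 CPM at 5% O2, again above every other library, with a log2 fold change of 1.81 (SE 0.23, adjusted p = 0.00237). LEFTY2 was at 0.379 and 0.632 CPM at 20% O2 and at 1.18 and 0.935 CPM at 5% O2. The LEFTY2 groups did not overlap and its log2 fold change was 1.06, but with 14 to 48 counts a library the interval ran from -0.37 to 2.48 (adjusted p = 0.347). LEFTY1 held 84.0 to 92.3% of the LEFTY counts in these 4 libraries.

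These NODAL and LEFTY1 calls rested on few libraries. Without the first untreated KO library the adjusted p was 0.0906 for NODAL and 0.0518 for LEFTY1, without the first 5% O2 library it was 0.165 and 0.0718, and without the second untreated KO library it was 0.0893 for NODAL. The number of the 8 genes called higher in these 3 fits was 0, 0 and 1, and the share of all genes called higher was 0.175%, 0.188% and 0.254%. Each of these fits left a group with a single library. In an edgeR fit of the untreated and 5% O2 KO libraries alone, the adjusted p was 3.48e-04 for NODAL and 4.54e-05 for LEFTY1. That fit called 9.53% of all genes as higher. Over 18 other settings the log2 fold change was at least 0.94 for NODAL and 1.70 for LEFTY1.

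LEFTY1 rose more than NODAL. In the libraries there were 0.300 and 0.311 LEFTY1 counts per NODAL count in KO at 20% O2 and 0.467 and 0.517 at 5% O2, with 0.209 and 0.189 in KO with NAC and 0.422 and 0.264 in WT. The KO groups did not overlap in this ratio, whereas the WT libraries lay on either side of the untreated KO libraries, and the ratio itself was not tested.

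GDF3 was at 58.4 and 63.9 CPM at 5% O2, a log2 fold change of 0.66 over KO at 20% O2 (SE 0.18, adjusted p = 0.0484). This was just inside the threshold. The call was kept in 10 of 18 other settings and was lost without any single WT, untreated KO or 5% O2 library (adjusted p = 0.0807 to 0.288). TDGF1, at 653 and 611 CPM, differed by 0.24 (SE 0.07, adjusted p = 0.0717), and FOXH1, at 100 and 109 CPM against 87.3 and 94.5 CPM, by 0.20 (SE 0.09, adjusted p = 0.183). ACVR2B differed by -0.04 (95% interval -0.21 to 0.14) and SMAD7 by -0.01 (95% interval -0.30 to 0.27). CER1 (chr9:14719724-14722733, minus strand, 2 exons), an antagonist that binds NODAL outside the cell, had 4 and 2 counts in untreated KO, 0 and 6 at 5% O2, and none in WT or with NAC, where a count of 0 allows up to 0.0778 to 0.100 CPM by counting error alone. No fold is given for it.

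**Figure D2:**
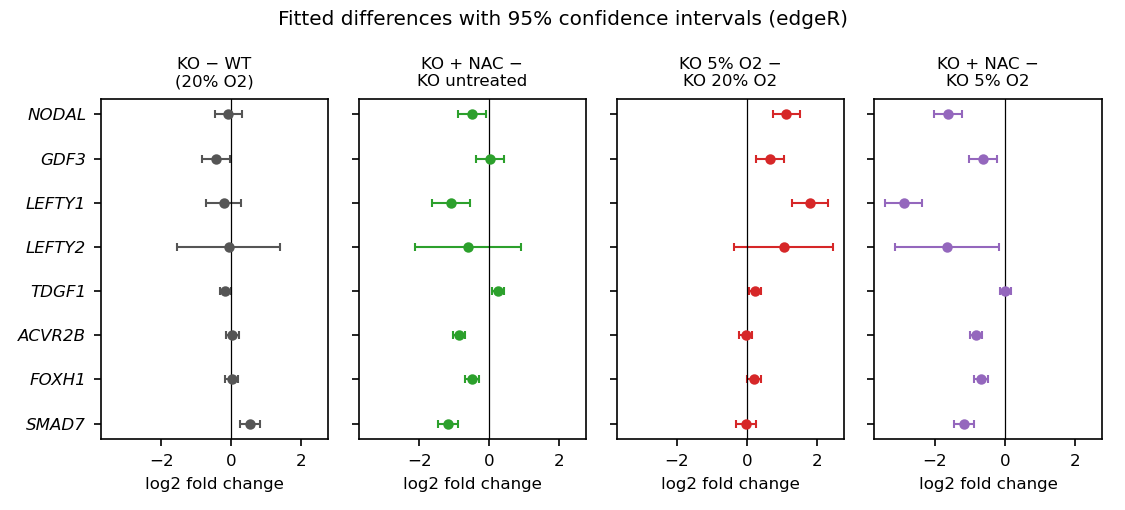
Fitted log2 fold change of the 8 tested genes (points) with 95% confidence intervals (bars) from edgeR in the 4 comparisons (panels), with a line at 0. The interval of LEFTY2 is the widest in every panel, and in KO at 5% against 20% O2 the points of NODAL and LEFTY1 lie at 1.13 and 1.81.

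NAC, given to KO cells, was compared with the same untreated KO libraries. SMAD7 fell to 0.444, LEFTY1 to 0.467, ACVR2B to 0.550, NODAL to 0.714 and FOXH1 to 0.719 of its untreated level, while TDGF1 rose to 1.20 times, a direction that turned with the length and GC trend removed. So 5 of the 8 genes were lower and 1 was higher by edgeR's adjusted p. Much of the transcriptome differed in the NAC libraries, with 20.8% of all genes lower and 23.8% higher (44.6% in either direction). With a fold over 2 and an unadjusted p under 0.05, SMAD7 and LEFTY1 were lower (5.39% of all genes) and 0 were higher (3.63%). The median log2 fold change of the 8 was -0.54, beside 0.02 over all genes.

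SMAD7 was at 45.2 and 52.0 CPM untreated and 18.8 and 24.3 CPM with NAC (log2 fold change -1.18, SE 0.13, adjusted p = 4.49e-05). Both NAC libraries were below WT as well. ACVR2B was at 141 and 142 CPM untreated and at 78.9 and 76.8 CPM with NAC (-0.86, SE 0.08, adjusted p = 1.96e-05). FOXH1 was at 64.5 and 66.3 CPM with NAC (-0.48, SE 0.09, adjusted p = 0.00119).

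LEFTY1 fell to 1.88 and 1.34 CPM, or 72 and 40 counts, a log2 fold change of -1.09 (SE 0.24, adjusted p = 0.00346). NODAL fell to 8.98 and 7.08 CPM (-0.48, SE 0.18, adjusted p = 0.0475), which was just inside the threshold and passed in 9 of 18 other settings, with an adjusted p of 0.213 without the first untreated KO library and 0.0917 without the second. LEFTY2 was at 0.548 and 0.100 CPM with NAC, or 21 and 3 counts, and overlapped the untreated libraries (-0.59, SE 0.70, adjusted p = 0.526). TDGF1 was at 639 and 642 CPM with NAC (0.26, SE 0.07, adjusted p = 0.0140), and without the first or the second untreated KO library the adjusted p was 0.0823 and 0.0998. The copy TDGF1P3 had 1.86 to 2.80% as many counts as TDGF1 in all 8 libraries.

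GDF3 differed between the NAC libraries, at 29.7 and 50.1 CPM, and its log2 fold change of 0.04 (adjusted p = 0.876) is a mean of unlike values. Without the first NAC library it was 0.37 (adjusted p = 0.0159) and without the second it was -0.38 (adjusted p = 0.0149). The first of these libraries was the one with the high mesenchymal markers. Without it the log2 fold changes were -1.0 for SMAD7 (adjusted p = 5.60e-05), -1.36 for LEFTY1, -0.88 for ACVR2B, -0.67 for NODAL, -0.46 for FOXH1, 0.26 for TDGF1 and -2.30 for LEFTY2, so the 5 falls were there in the library without that marker signal too. Without the second NAC library LEFTY2 was at 0.11 and the adjusted p of NODAL was 0.180.

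Base composition moved with these differences. Across 14828 genes the log2 fold change with NAC had a Spearman correlation of -0.49 with the GC content of the transcript and of -0.23 with its length, so GC-rich genes tended to be lower in the NAC libraries. At 5% O2 these values were -0.33 and -0.23, and for KO against WT 0.15 and 0.21. TDGF1 had a GC content of 43.0%, ACVR2B 45.6%, CER1 47.8%, GDF3 49.8%, NODAL 55.0%, SMAD7 57.0%, LEFTY2 59.0%, LEFTY1 62.2% and FOXH1 64.4%. With a smooth trend on both measures taken out of each library, SMAD7 (-0.88, adjusted p = 5.74e-04), LEFTY1 (-0.90, adjusted p = 0.0263) and ACVR2B (-0.43, adjusted p = 0.00225) remained lower with NAC. NODAL was at -0.47 (adjusted p = 0.0642) and FOXH1 at -0.15 (adjusted p = 0.191). TDGF1 turned from higher to lower, at -0.26 (adjusted p = 0.0113), so its direction with NAC depends on that correction. At 5% O2, NODAL (1.13, adjusted p = 0.00808) and LEFTY1 (1.90, adjusted p = 0.00373) kept their values, GDF3 was at 0.51 (adjusted p = 0.223), and FOXH1 at 0.36 passed (adjusted p = 0.0412).

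**Figure D3:**
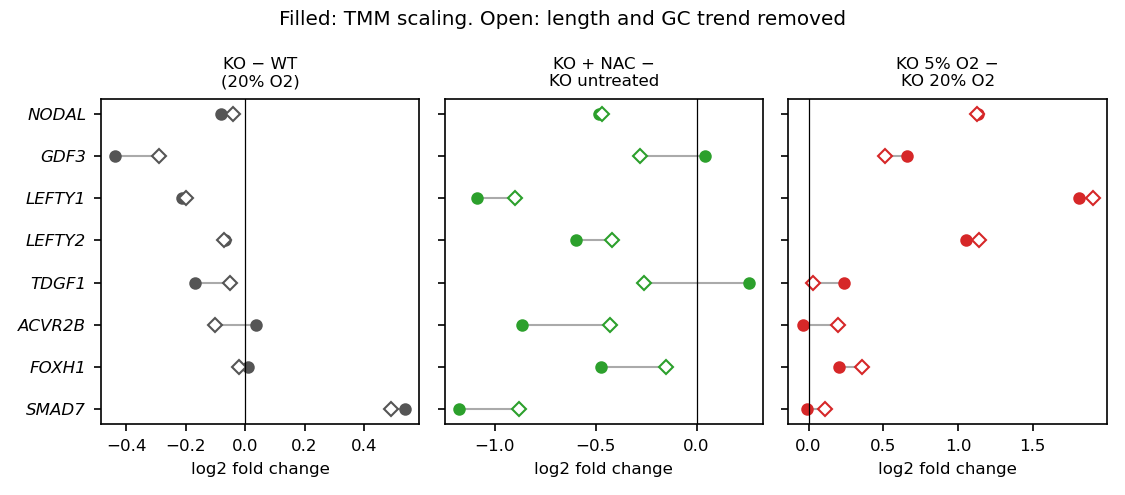
Log2 fold change of the 8 tested genes (y axis) in 3 comparisons (panels, each with its own x axis) with TMM scaling (filled circles) and after removal of the length and GC trend (open diamonds), joined by a line. In the NAC panel TDGF1 crosses 0, from 0.26 to -0.26, while NODAL and LEFTY1 stay on the right of 0 in the 5% O2 panel.

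The comparison of NAC with 5% O2 set the 2 treated KO groups against each other directly, since both comparisons above share the untreated KO libraries. Of the 8 genes, 6 were lower with NAC than at 5% O2 and 0 were higher, against 13.6% and 15.5% of all genes (29.1% in either direction). With a fold over 2 and an unadjusted p under 0.05, NODAL, LEFTY1, LEFTY2 and SMAD7 were lower (2.46% of all genes) and 0 were higher (1.95%). LEFTY1 differed by -2.89 (SE 0.25, adjusted p = 8.50e-05), its 2 NAC libraries having 0.133 times the mean of the 5% O2 libraries. NODAL differed by -1.61 (SE 0.18, adjusted p = 2.85e-04), a ratio of 0.326. SMAD7 followed at -1.16 (SE 0.13, adjusted p = 3.57e-04), ACVR2B at -0.82 (SE 0.08, adjusted p = 2.18e-04), FOXH1 at -0.68 (SE 0.09, adjusted p = 5.81e-04) and GDF3 at -0.62 (SE 0.18, adjusted p = 0.0247). LEFTY2 was at -1.65 (SE 0.68, adjusted p = 0.0903). TDGF1 was at 0.02 (95% interval -0.14 to 0.18). Without the first NAC library, GDF3 was at -0.29 (adjusted p = 0.0762) and LEFTY2 at -3.36 (adjusted p = 0.0123), and the other 5 calls held. GDF3 also lost its call without the first (adjusted p = 0.0745) or the second (adjusted p = 0.176) 5% O2 library.

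Set side by side, the genes fell into unlike patterns. NODAL and LEFTY1 were higher at 5% O2 and lower with NAC than in untreated KO. SMAD7, ACVR2B and FOXH1 were called lower with NAC and were not called at 5% O2, and the direct comparison above gave a difference between the treated groups for each. With the length and GC trend removed, FOXH1 was called at 5% O2 (0.36, adjusted p = 0.0412) and not with NAC (-0.15, adjusted p = 0.191). NODAL with NAC was then at -0.47 and did not pass (adjusted p = 0.0642). TDGF1 was the only one of the 8 genes whose mean with NAC was not below its mean at 5% O2, and with the length and GC trend removed it was below too (-0.30, adjusted p = 0.0114). Over the 8 libraries, whose levels share depth and GC trends, the log2 CPM of NODAL was most like those of LEFTY1 (Pearson r 0.97), CYYR1 (0.96) and SKIL (0.96), and that of LEFTY1 most like TENM3.AS1 (0.99), ZNF395 (0.97) and NCKIPSD (0.97). GDF3 was most like EPM2A (0.98), CYP26A1 (0.94) and EPHX2 (0.93), LEFTY2 most like ATP6V1E2 (0.98), KCTD11 (0.97) and S100A10 (0.96), and TDGF1 most like CNOT9 (0.97), CLIC4 (0.97) and CDCA7 (0.96). The closest genes were GAD2, MLEC and GNAS for ACVR2B, GYS1, CDC25A and CAVIN3 for FOXH1, and TSKU, RCOR2 and COL5A2 for SMAD7. These were picked as the highest of many and carry no test.

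The rest of the pathway was read from lists of other ligands and processing enzymes, receptors, antagonists, SMADs with their cofactors, and mesendoderm targets. In KO against WT, 1 gene of these lists passed, the coactivator CREBBP at 0.63 (SE 0.12, adjusted p = 0.0197), among 7 ligand and processing genes, 6 receptors, 12 antagonists, 13 SMADs and cofactors and 9 targets tested. With the length and GC trend removed, none did.

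At 5% O2, of the 9 mesendoderm targets tested, 1 was higher and 0 were lower, beside 3.68% and 4.13% of all genes. Their median log2 fold change was 0.54, or 0.50 with the length and GC trend removed. The one that rose was CXCR4, a chemokine receptor of definitive endoderm, from 0.813 and 0.656 CPM to 2.01 and 2.43 CPM (1.59, SE 0.35, adjusted p = 0.0237). MIXL1, a homeobox gene of the primitive streak, was at 2.82 and 2.60 CPM at 20% O2 and at 4.17 and 3.71 CPM at 5% O2, which did not pass (adjusted p = 0.285). The convertase FURIN, which cleaves the NODAL precursor, was lower at 5% O2 (-0.45, SE 0.10, adjusted p = 0.0247), as were CREBBP (-0.71, adjusted p = 0.00918), EP300 (-0.46, adjusted p = 0.0394) and the repressor SKI (-0.44, adjusted p = 0.0222). None of the 6 receptors and 12 antagonists tested passed. With the length and GC trend removed, the falls of these 4 genes no longer passed and 0 ligand and 0 SMAD genes were called.

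With NAC, 3 of the 9 targets were lower and 1 was higher, beside 20.8% and 23.8% of all genes, with a median of -0.46. Among those that fell, MIXL1 went to 0.679 and 1.14 CPM (-1.59, SE 0.32, adjusted p = 0.00180) and the growth factor FGF8 from 1.85 ± 0.0920 to 0.753 ± 0.0685 CPM (SD, n = 2; -1.30, SE 0.41, adjusted p = 0.0228). CXCR4 was the one that rose, at 1.77 and 1.60 CPM (1.20, adjusted p = 0.0157). Without the first NAC library MIXL1 was at -1.25 (adjusted p = 0.00900), while FGF8 no longer passed (-1.21, adjusted p = 0.0663). With the trend removed, MIXL1 was at -1.66 (adjusted p = 0.00337) and FGF8 at -1.06 (adjusted p = 0.0669).

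Among 12 antagonists and feedback genes tested, 4 were lower with NAC and 0 higher, beside the same 20.8% and 23.8% of all genes (median -0.25), led by PMEPA1, a TGF-β target that binds receptor-regulated SMADs, at -1.12 (SE 0.13, adjusted p = 5.59e-05), the ubiquitin ligase SMURF1 at -0.81 (adjusted p = 1.23e-04) and NCLN at -0.48 (adjusted p = 0.00274). Of 13 SMADs and cofactors, 6 were lower and 1 higher (median -0.13), with CREBBP at -1.59 (adjusted p = 1.28e-05), EP300 at -1.23 (adjusted p = 2.41e-05) and SKI at -1.14 (adjusted p = 1.59e-05) the largest. Of 7 ligand and processing genes, FURIN (-0.79, adjusted p = 9.35e-05) and PCSK5 (-0.57, adjusted p = 0.00281) were lower. Of 6 receptors, ACVR2A, the other activin type II receptor, was higher (0.61, SE 0.14, adjusted p = 0.00435), at 17.7 ± 1.02 against 11.5 ± 1.11 CPM (SD, n = 2), where ACVR2B was lower. With the trend removed, no receptor was called, NCLN was at 0.12 (adjusted p = 0.269), FURIN at -0.21 (adjusted p = 0.0872) and PCSK5 at -0.04 (adjusted p = 0.836), and 2 antagonists were lower and 1 was higher. Of the 13 SMADs and cofactors, 7 were then lower and 4 higher (median -0.29), beside 12.1% and 16.4% of all genes. Without the first NAC library the calls of the genes named here were kept.

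**Figure D4:**
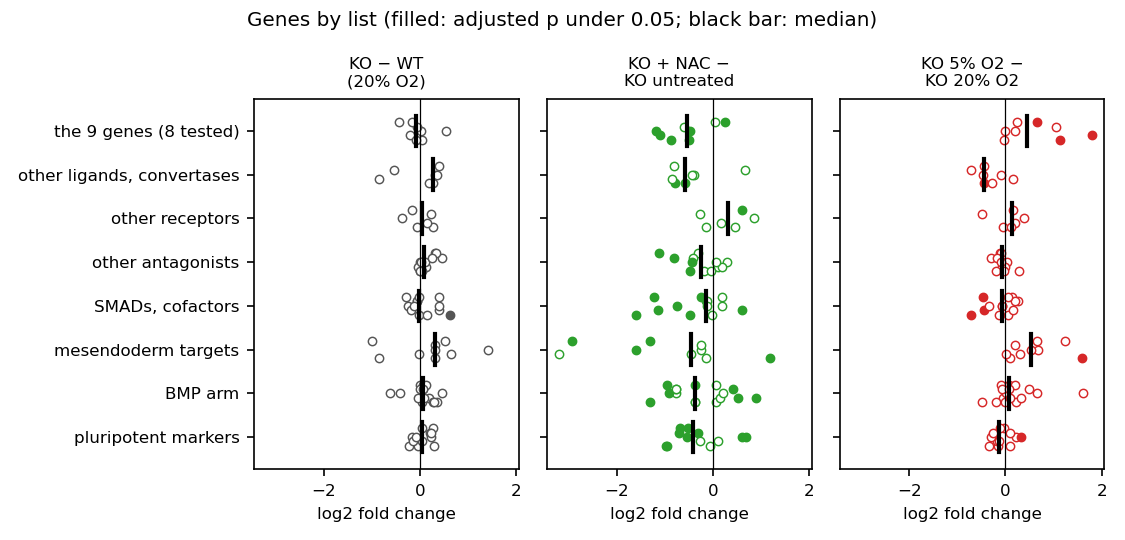
Log2 fold change (x axis) of each tested gene of the lists named on the y axis in 3 comparisons (panels), filled where the adjusted p was under 0.05, with a black bar at the median of each list. In KO at 5% against 20% O2 the 9 mesendoderm targets have a median of 0.54, and with NAC their median is -0.46.

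Between NAC and 5% O2, 3 mesendoderm targets were lower with NAC and 0 were higher, with a median of -0.93 beside 0.04 over all genes. Among them were MIXL1 (-2.13, SE 0.32, adjusted p = 9.87e-04) and FGF8 (-1.96, SE 0.41, adjusted p = 0.00509). SKIL, a SMAD repressor, was at 132 and 115 CPM at 5% O2 and 94.1 and 93.5 CPM with NAC (-0.40). It was named for its likeness to NODAL over these same libraries, so its difference follows from that choice and carries no test. PMEPA1 was lower with NAC by this comparison too (-1.04, adjusted p = 4.98e-04). The activin subunit INHBE was at 19.1 and 7.75 CPM with NAC and 5.22 and 5.14 CPM at 5% O2 (1.38, SE 0.34, adjusted p = 0.0114), and without the first NAC library it did not pass (0.58, adjusted p = 0.0902). In bulk RNA, fewer cells with a transcript and less of it per cell cannot be told apart, which holds for each level given here.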

How the data were processed

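RNA-seq counts of 8 hESC libraries in 4 groups were used. Per the labels and the study's methods, the authors used trim-galore for trimming, HISAT2 for alignment to hg38 and featureCounts, at default settings that ignore strand, for raw counts per gene. The annotation is not given in the sources used here. The deposited counts carry no normalization.

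Genes kept by filterByExpr (minimum count 10) were scaled by TMM and fitted in edgeR 4.0.16 (R 4.3.3) as quasi-likelihood models with a term for each group (4 residual degrees of freedom), with Benjamini-Hochberg adjustment. SE is the absolute log2 fold change over the root of F. Replicates differed by more than counting noise (chi-square per degree of freedom 9.79 to 32.4). Alternatives were DESeq2 1.42.0, other scalings and filters, a replicate block, a length and GC trend (mgcv 1.9.3; 93.2% of tested genes have a length) and leaving out libraries. The MANE transcript length was added after seeing the data, and it moved no rank of NODAL. The fits were tested on simulated counts. Limits on counts of 0 cover counting error only.

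The members and lists were chosen with earlier results of these data known. Named genes were the members, UBQLN1, up to 3 called genes of each list with the largest change in each comparison, and the 3 genes most like each member. COL3A1, TDGF1P3, SKIL against 5% O2, MIXL1 at 5% O2, CXCR4 with NAC and NANOG were picked after their values were seen. A gene named by this rule and a sequence are not reported here.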

Additional observations from a re-analysis of the deposited data

How the results depend on the processing

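In KO against WT, 0 of the 8 pathway genes tested were called higher or lower in the main analysis. DESeq2, no filter and a fit of only the groups compared gave 1 higher, and the last pair gave 1 lower. Leaving out single libraries gave 0 to 1 in each direction (1 and 1 without either NAC library). With NAC, the 1 higher gene became 0 with the length and GC trend removed, alone or with a block, and 0 when a fold over 2 was also asked, where the 5 lower became 2 with either p. Leaving out libraries gave 0 to 2 higher (2 without the first NAC library). At 5% O2 the 3 higher genes became 0 to 4. For NAC against 5% O2, the 6 lower became 3 with a fold over 2 and an adjusted p.

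The replicate numbers did not pair the libraries (correlations of deviations -0.02 to 0.08). With the replicate block, over all groups or within KO, 1 gene was higher in KO against WT. With the block and the trend removed, GDF3 with NAC was at -0.31 and SMAD7 at 5% O2 at 0.12.

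Directions turned for small values. In KO against WT, without single libraries NODAL ran from -0.21 to 0.07 and LEFTY2 from -0.48 to 0.25 (0.12 without the first WT library), and FOXH1 reached -0.05. With the trend removed, with or without the block, ACVR2B was at -0.10 and FOXH1 at -0.02, and upper quartile scaling put FOXH1 at -0.01. With NAC, the trend removal put TDGF1 at -0.26, with or without the block, and GDF3 at -0.28. Without single libraries GDF3 ran from -0.38 to 0.37 and passed -0.01, and LEFTY2 from -2.30 to 0.11. At 5% O2, ACVR2B was at 0.20 and SMAD7 at 0.11 with the trend removed, and without single libraries SMAD7 ran from -0.11 to 0.09 (0.01 without the first 5% O2 library). For NAC against 5% O2, TDGF1 was at -0.01 with DESeq2, RLE, upper quartile scaling or only the groups compared, at -0.30 with the trend removed, with or without the block, and at -0.01 and -0.03 without single libraries. The causes were not tested.

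Over all genes the trend removal changed higher and lower calls from 213 and 99 to 101 and 98 in KO, from 3785 and 3315 to 2605 and 1923 with NAC, and from 586 and 657 to 317 and 72 at 5% O2. DESeq2 gave no adjusted p for LEFTY2 in KO against WT and at 5% O2. Depth limits LEFTY2 and CER1.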

Other observations

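The BMP arm, which shares SMAD4 with NODAL signalling, was listed beside the pathway. Of its 16 tested genes, 0 passed in KO against WT (median 0.07) or at 5% O2 (median 0.08). With NAC, 3 were higher and 4 lower (median -0.36), beside 23.8% and 20.8% of all genes. The target ID1 fell from 79.6 ± 11.5 to 41.0 ± 2.94 CPM (SD, n = 2; -0.96, adjusted p = 5.16e-05), while its relative ID2 rose from 59.7 ± 2.41 to 112 ± 16.4 CPM (SD, n = 2; 0.90, adjusted p = 6.40e-05), and SMAD9, at 0.695 ± 0.245 CPM with NAC (SD, n = 2), was lower (-1.30, adjusted p = 0.0344), a call lost without the first NAC library (adjusted p = 0.146). Between NAC and 5% O2, 3 were higher and 5 lower, with BMP4 at -1.43 (adjusted p = 0.0293) and its antagonist CHRD at -0.91 (adjusted p = 0.0334), or -0.77 without that library (adjusted p = 0.104).

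Of 12 pluripotent cell markers, 0 passed in KO against WT, and ZFP42 alone rose at 5% O2 (0.33, adjusted p = 0.0401). With the length and GC trend removed, 0 of them passed at 5% O2. With NAC 2 were higher and 7 lower (median -0.41), beside the same shares of all genes. The methyltransferase DNMT3B fell from 2504 ± 69.1 to 1277 ± 199 CPM (SD, n = 2; -0.97, adjusted p = 2.67e-05) and UTF1 by 0.95 on the log2 scale (adjusted p = 5.36e-04), and DPPA4 rose (0.70, adjusted p = 4.55e-05). NANOG, a known target of SMAD2 and SMAD3 that was picked after its values were seen, was at 155 and 154 CPM untreated and at 132 and 117 CPM with NAC (-0.31, adjusted p = 0.0142). Of neuroectoderm markers 4 were tested and of trophoblast and amnion markers 2, and 0 passed with NAC, at 5% O2 or in KO, while DLK1 was lower with NAC, at 2.40 ± 0.997 CPM, than at 5% O2, at 4.79 ± 0.982 CPM (SD, n = 2; adjusted p = 0.0278, or 0.126 without the first NAC library). Of 6 mesenchymal markers tested, 3 were higher with NAC (PDGFRB 3.53, IGFBP5 2.65, PDGFRA 1.54), and without the first NAC library 0 were higher and 2 lower.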
